A study of Sus scrofa with 6 samples.

Results

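The potassium channel genes of porcine midbrain-like organoids were followed in single-cell RNA sequencing libraries collected on 3 days of culture. A gene was included when its symbol in the deposited gene lists began with KCN and it held at least 50 UMIs over the 6 libraries. A UMI, or unique molecular identifier, tags 1 captured RNA molecule. Of the 85 KCN symbols among the 30477 listed genes, 74 met this rule. The 11 others ranged from 0 UMIs (KCNJ1 and KCNA10) to 41 UMIs (KCNK16), whereas KCNA1 with 72, KCNG4 with 79 and KCNK7 with 92 UMIs lay just inside. Another 3 channel genes were listed by an Ensembl identifier without a symbol and so stood outside the rule, namely KCNE1 (1791 UMIs), KCNMB2 (3108 UMIs) and KCNH1 (8312 UMIs).

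All organoids came from IVF_1_ pESC_FIW, which is 1 porcine embryonic stem cell line made from in vitro fertilised embryos, so differences between lines were not sampled. They were harvested on day 11 (D11), day 28 (D28) or day 45 (D45), with replicate libraries A and B on each day. Every group had received SB431542, Noggin, SHH-C24II and CHIR99021, followed by FGF8 and then by FGF8 with BDNF and ascorbic acid. The D28 and D45 organoids had in addition been embedded in Matrigel and kept in medium with BDNF, GDNF, ascorbic acid, db-cAMP and DAPT, steps that began after D11, so that time in culture and medium cannot be told apart in comparisons with D11. The libraries of a day are described by the study as biological duplicates. Whether A and B came from separate rounds of differentiation is not given in the sources used here, and p-values measure the spread between these libraries only.

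Potassium channels are membrane pores that let potassium leave or enter a cell, and they set the resting potential, end the action potential and shape firing rate. The pore-forming proteins fall into voltage-gated families (KCNA to KCND, KCNQ and KCNH), inward rectifiers (KCNJ), tandem-pore leak channels (KCNK) and a last group (KCNM, KCNN, KCNT and KCNU). The last group holds channels opened by calcium or sodium and their relatives, and is called calcium- or sodium-activated below. Silent subunits (KCNF, KCNG, KCNS and KCNV) join other voltage-gated subunits without forming channels alone, and auxiliary proteins (KCNAB, KCNE, KCNIP, KCNMB and KCNRG) alter gating, assembly or transport. In midbrain dopaminergic neurons KCNJ6, which encodes the G protein-gated inward rectifier GIRK2, is a widely used marker. The 74 genes comprised 13 KCNA to KCND genes, 13 auxiliary genes, 12 KCNJ, 11 KCNK, 8 silent, 7 KCNH, 5 KCNQ and 5 calcium- or sodium-activated genes. The last 5 were KCNMA1, KCNN1, KCNN2, KCNN3 and KCNU1.

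What the pore-forming members share in sequence is the selectivity filter, the short stretch of each subunit that strips water from potassium ions. The following coding bases are shown for 6 genes whose levels are described later, each 45 bases read 5′ to 3′ on the coding strand from the RefSeq annotation of Sscrofa11.1, with the 5 filter codons in capitals. All of them lie within 1 coding exon. KCNJ6 (chr13:201332294-201332338, minus strand) and KCNJ8 (chr5:51702759-51702803, plus strand) represent the inward rectifiers. KCNC2 (chr5:38338043-38338087, minus strand), KCNH8 (chr13:6431477-6431521, plus strand) and KCNS3 (chr3:119951932-119951976, minus strand) represent the voltage-gated and silent subunits, and KCNMA1 (chr14:79583025-79583069, minus strand) the calcium-activated channels.
KCNJ6: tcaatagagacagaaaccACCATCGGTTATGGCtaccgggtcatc
KCNJ8: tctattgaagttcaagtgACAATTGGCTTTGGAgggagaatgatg
KCNC2: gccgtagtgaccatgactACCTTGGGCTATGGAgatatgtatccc
KCNH8: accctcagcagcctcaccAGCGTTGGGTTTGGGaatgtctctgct
KCNS3: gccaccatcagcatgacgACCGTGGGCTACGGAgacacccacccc
KCNMA1: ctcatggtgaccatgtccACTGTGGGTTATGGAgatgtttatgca

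The pattern searched was a codon for threonine or serine, then 1 for alanine, threonine, valine, isoleucine, leucine, methionine or cysteine, then glycine, then tyrosine, phenylalanine or leucine, and then glycine, in the longest RefSeq coding sequence of each gene. It was found in 60 of the 60 pore-forming members that could be read (KCNH4 was not matched by symbol) and in 0 of the 13 auxiliary members, against 2.31% of 20648 coding genes. A single site was present in 49 members. In 40 of these the last 3 codons read glycine, tyrosine, glycine, as in KCNJ6 and KCNC2, and in 9 they read glycine, phenylalanine, glycine, as in KCNH8 and KCNJ8. The KCNK channels, whose subunits carry tandem pore domains, held 2 sites in 10 genes and 3 sites in KCNK13. The first KCNK13 site, at residue 9 of 410, reads serine, cysteine, glycine, leucine, glycine, and is the only one of the KCNK sites without threonine at its start. The others in KCNK13 lie at residues 112 and 239 and read threonine, isoleucine, glycine, phenylalanine, glycine. A match is a run of codons and is not by itself a filter.

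After the study's limits on genes per cell and mitochondrial share, 102940 of 104820 barcodes were kept, with 106805311 to 180034791 UMIs per library. Levels are in CPM (counts of a gene for each 1000000 UMIs of the cells that were summed). Introns were counted together with exons, so levels are compared within a gene and not between genes. The labels give the cell type of all libraries as midbrain dopaminergic neurons. Cells with at least 1 UMI of STMN2, a neuronal tubulin regulator, made up 26.8% and 33.4% of D11, 74.8% and 69.6% of D28 and 72.0% and 68.5% of D45 cells. The median depth was 10757 and 8845, 5505 and 8130, and 2300.5 and 4341 UMIs in the same order. After thinning to 1000 UMIs, which leaves out shallower cells, the shares were 11.9% and 14.95%, 53.6% and 44.2%, and 45.3% and 40.6%. Among cells with at least 2 UMIs of the fibroblast gene COL3A1, which should lack STMN2, 62.2%, 63.4%, 60.9% and 63.0% held an STMN2 UMI from D28 A to D45 B, at median depths of 12669 to 17596 UMIs. At least 3 STMN2 UMIs were held by 14.3% to 19.0% of these cells and by 32.1% to 43.1% of all cells on those days. STMN2-positive is used below for a UMI count and not for a cell type. Counts with at least 3 UMIs are given beside those with 1 for the STMN2 comparison and for day differences within positive cells. They were not run for the TH and GAD2 gates. STMN2-positive cells with at least 2 UMIs of TH, the rate-limiting enzyme of dopamine synthesis, numbered 340 to 654 per library on D28 and D45. D28 A and D28 B stood apart. Fibroblast markers summed to 916 CPM in D28 A and 109 CPM in D28 B, and GABAergic markers to 4.76 and 57.3 CPM. From D11 to D45 the summed oligodendrocyte-lineage markers went from 3.38 to 4.09 CPM to 479 to 597 CPM, astrocyte markers from 36.0 to 39.3 CPM to 425 to 465 CPM, and floor plate markers from 1392 to 1528 CPM to 136 to 184 CPM. Any pair of libraries shared 55 to 119 cell barcodes.

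The first question was how potassium channel RNA changed as the organoids aged. The 74 genes together held 796 and 686 CPM in D11 A and B, 1125 and 1740 CPM in D28 A and B, and 2439 and 2231 CPM in D45 A and B, without overlap between days. Each gene was then tested with edgeR's quasi-likelihood test on the UMIs summed per library, with p-values adjusted by Benjamini-Hochberg over all 22192 genes tested and called under 0.05. Changes are log2 fold changes ± standard error (SE). Between D11 and D28, 32 of 74 members rose and 4 fell, whereas 12.5% of all genes tested rose and 10.6% fell. Between D28 and D45, 15 rose and 4 fell, against 4.47% and 4.93% of all genes. Over the whole interval from D11 to D45, 38 rose and 9 fell, against 17.3% and 17.4%. The median change of the members was 0.87 from D11 to D28, 0.22 from D28 to D45 and 1.15 from D11 to D45, and that of all genes 0.03, −0.03 and −0.01. These comparisons share libraries and are not independent. In whole organoids, more cells with a given RNA and more RNA per cell cannot be told apart.

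With 2 libraries a day, several counts rested on single libraries. From D11 to D28, the number that rose was 13 without D11 A and 11 without D11 B, and the number that fell was 2 without either of them and 9 without D28 B. The counts over all genes moved in the same way, with 608 of 22959 rising without D11 A and 691 of 22970 without D11 B, against 2784 of 22192 with all libraries, and 5147 of 22878 falling without D28 B, against 2347. From D28 to D45, no member passed in either direction without D45 A or without D45 B, although 25 and 26 members had an unadjusted p under 0.05 there. Of all genes, 0 and 29 were higher in those fits. DESeq2 on all 6 libraries called 20 members higher in that comparison, without a share of all genes from that fit to set beside them. The number that rose there was 5 without D11 A or D11 B, 23 without D28 A and 25 without D28 B, and the number that fell was 0 without D11 A or D11 B and 12 without D28 B. Without D28 B, 4700 of 22878 genes rose and 5303 fell, so that the 12 of 74 members that fell were a smaller share than that of all genes. From D11 to D45, 24 rose without D11 B, and 2 to 3 fell without D11 A, D11 B, D45 A or D45 B, where 1574 of 22970 genes rose without D11 B and 1230 to 1671 fell.

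**Figure D1:**
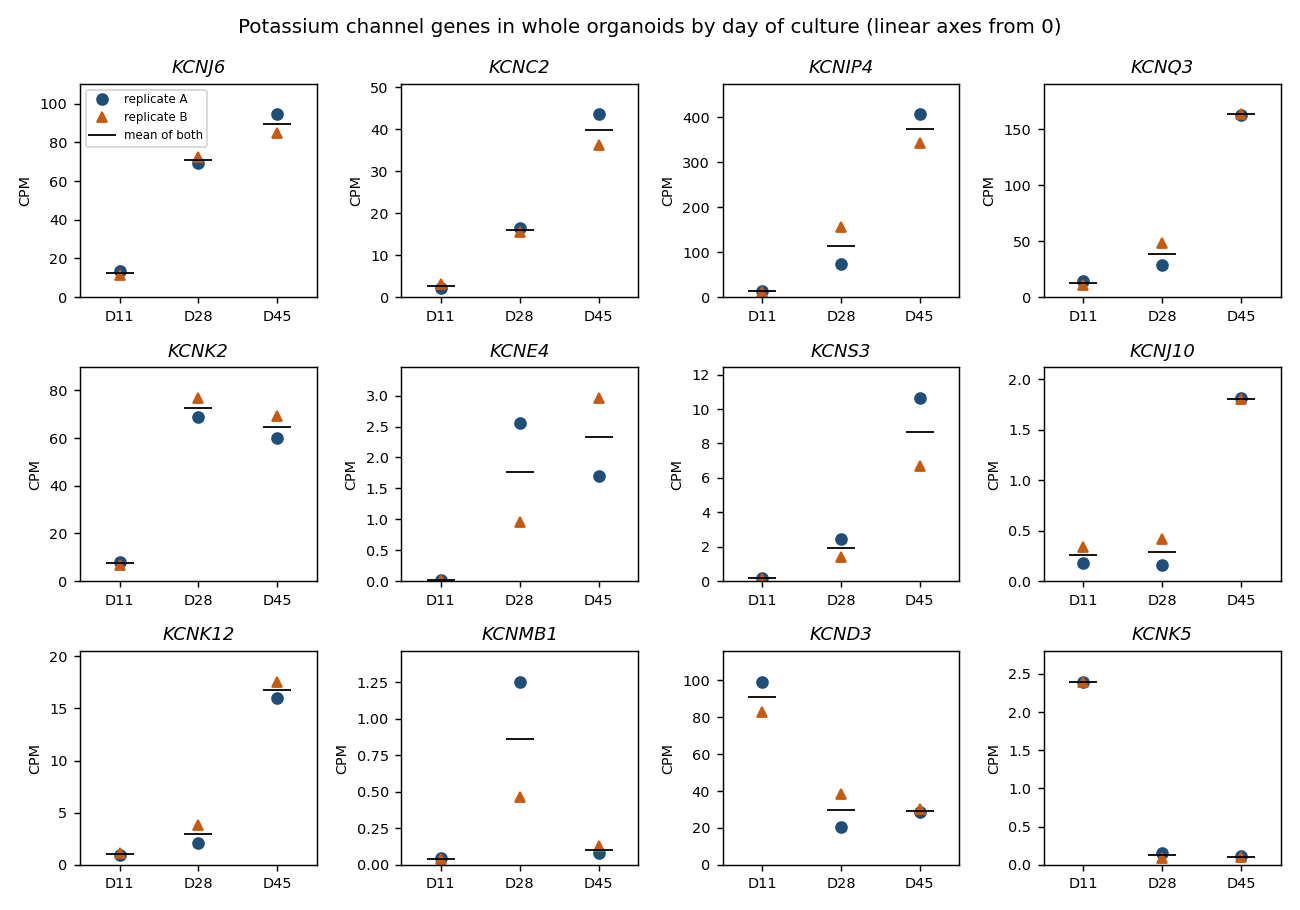
Levels of 12 potassium channel genes in whole organoids. The x axis is the day of culture, the y axis the CPM of the gene, and each point 1 library (replicate A or B), with a horizontal bar at the mean of both libraries of a day. KCNIP4 went from 14.2 and 11.1 CPM on D11 to 407 and 343 CPM on D45, KCNMB1 was highest on D28, and KCND3 and KCNK5 were highest on D11.

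The inward rectifiers included the G protein-gated channels that neurotransmitters such as dopamine open. KCNJ6 stood at 13.6 and 11.5 CPM on D11, 69.5 and 72.7 CPM on D28, and 94.6 and 84.8 CPM on D45. The days did not overlap, and the rise from D11 to D28 was 2.24 ± 0.17 (adjusted p = 0.000746), whereas the later step of 0.18 ± 0.16 did not pass (adjusted p = 0.467). KCNJ3, which encodes GIRK1 and assembles with KCNJ6, held 1.03 and 1.26 CPM on D11, 17.6 and 17.6 CPM on D28, and 23.6 and 18.1 CPM on D45. It rose by 3.68 ± 0.24 from D11 to D28 (adjusted p = 0.000621) and its D28 to D45 difference was 0.09 ± 0.22 (adjusted p = 0.813). KCNJ9, which encodes GIRK3, rose from 0.708 and 0.817 CPM to 6.17 and 5.34 CPM between D11 and D45 (2.50 ± 0.27, adjusted p = 0.000886). KCNJ5, the GIRK4 gene, was spread widely on D28, with 0.262 CPM in replicate A and 2.10 CPM in replicate B, and passed in none of the 3 day comparisons.

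KCNJ10, an inward rectifier of glia, gave another time course. Its level was 0.177 and 0.333 CPM on D11, 0.159 and 0.413 CPM on D28 and 1.82 and 1.80 CPM on D45. D11 and D28 overlapped and both D45 libraries were higher, with a D28 to D45 rise of 2.54 ± 0.48 (adjusted p = 0.0269). KCNJ2, which encodes a strong inward rectifier, went the other way, with 3.02 and 3.09 CPM on D11, 3.86 and 4.79 CPM on D28 and 1.54 and 1.76 CPM on D45 (−1.53 ± 0.25 from D28 to D45, adjusted p = 0.0184). The D28 to D45 calls of KCNJ2 and KCNJ16 were also lost without D11 A or D11 B. KCNJ16, a partner of KCNJ10, was highest on D28, at 3.24 and 4.72 CPM, against 1.61 and 1.81 CPM on D11 and 1.97 and 1.78 CPM on D45. KCNJ13 fell from 17.6 and 21.0 CPM on D11 to 12 and 9.26 CPM on D45 (−1.28 ± 0.29, adjusted p = 0.0146), a call that was lost without any of D11 A, D11 B, D45 A and D45 B. Of the 12 KCNJ genes tested, 6 rose and 2 fell between D11 and D45, against 17.3% and 17.4% of all genes, so that the falls were near the general share. KCNJ13 overlaps GIGYF2 on the opposite strand, and KCNJ6 overlaps a pseudogene on its own strand.

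Among the KCNA to KCND genes, 6 of 13 rose and 1 fell between D11 and D45, against 17.3% and 17.4% of all genes. KCNC2, whose fast channels permit repetitive firing, held 2.24 and 3.06 CPM on D11, 16.4 and 15.5 CPM on D28, and 43.6 and 36.1 CPM on D45. It rose at both steps, by 2.33 ± 0.24 (adjusted p = 0.00149) and 1.16 ± 0.23 (adjusted p = 0.0298), the second of which did not pass without D11 A, D11 B, D45 A or D45 B. The A-type channel genes KCND2 and KCND3 moved in opposite directions. KCND2, which held most UMIs in this group, stood at 89.3 and 55.8 CPM on D11, 57.3 and 208 CPM on D28 and 352 and 367 CPM on D45. Both D45 libraries lay above all others (1.91 ± 0.50 from D11, adjusted p = 0.0249), although the call was lost without any of D11 A, D11 B, D45 A and D45 B. KCND3 fell from 99.3 and 82.8 CPM on D11 to 20.5 and 38.5 CPM on D28 and 28.7 and 30.1 CPM on D45. Its change from D11 to D45 was −2.04 ± 0.25 (adjusted p = 0.00137), and D28 and D45 overlapped. KCNA1, a low-threshold delayed rectifier gene, was barely sampled, with 0 UMIs in D11 A, 1 in D11 B, 8 in D28 A, 4 in D28 B, 27 in D45 A and 25 in D45 B. The ratio of its summed D45 to D11 levels was 71.7, with an exact interval at 95% of 12.3 to 2886 that covers counting error only. KCNA1 met the rule of at least 50 UMIs only through its D45 UMIs, so that the rule sets part of this contrast.

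The KCNQ family includes the neuronal M-type channels, which muscarinic receptors close, and KCNQ1 of heart and epithelia. Between D11 and D45, 4 of 5 rose and none fell, against 17.3% and 17.4% of all genes. KCNQ3 went from 14.3 and 11.0 CPM on D11 through 28.8 and 48.8 CPM on D28 to 163 and 164 CPM on D45. The 3 days did not overlap, and the D11 to D45 rise was 3.29 ± 0.24 (adjusted p = 0.000316). KCNQ3 overlaps HHLA1 on the same strand in the RefSeq annotation, and how reads in the overlap were assigned was not examined. KCNIP4 and KCNMA1 likewise overlap long non-coding RNA genes on their own strand, and KCNN2 a pseudogene.

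KCNH genes encode the ether-a-go-go type channels, of which 3 of 7 rose and 1 fell between D11 and D45, against 17.3% and 17.4% of all genes. KCNH5 held 1.07 and 1.33 CPM on D11, 12.9 and 21.2 CPM on D28 and 18.0 and 25.1 CPM on D45. D11 lay below both later days, with a rise of 3.76 ± 0.31 by D45 (adjusted p = 0.000413). KCNH7, which had most UMIs in the family, went from 27.6 and 27.5 CPM to 72.3 and 152 CPM and then 114 and 106 CPM (D11 to D45 1.58 ± 0.27, adjusted p = 0.00524). KCNH6 was higher on D11, at 0.360 and 0.228 CPM, than on D45, at 0.110 and 0.150 CPM. Its fall of 1.57 on the log2 scale (SE 0.48, adjusted p = 0.0408) did not pass with DESeq2 (adjusted p = 0.0552) or without any of D11 A, D11 B, D45 A and D45 B.

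Tandem-pore KCNK channels, which carry leak current, moved both ways, with 7 of 11 higher and 3 lower on D45 than on D11, against 17.3% and 17.4% of all genes. KCNK2, a channel opened by membrane stretch and lipids, held 8.0 and 6.76 CPM on D11, 68.7 and 76.8 CPM on D28 and 59.9 and 69.1 CPM on D45. The rise was complete by D28 (3.04 ± 0.19, adjusted p = 0.000609) and the D28 to D45 difference of −0.32 ± 0.17 did not pass (adjusted p = 0.246). KCNK12 went from 0.986 and 1.09 CPM through 2.09 and 3.80 CPM to 16.0 and 17.6 CPM, and its D28 to D45 rise of 2.39 ± 0.28 (adjusted p = 0.00835) did not pass without D45 A or D45 B. KCNK13 held 0.310 and 0.228, 0.552 and 1.06, and 4.54 and 4.03 CPM on the 3 days, and the same applied to its D28 to D45 rise (2.29 ± 0.34, adjusted p = 0.0143). KCNK5, an acid- and volume-sensitive channel of epithelia, had the largest fall of all members. It held 2.40 and 2.39 CPM on D11 against 0.159 and 0.0873 CPM on D28 and 0.110 and 0.102 CPM on D45 (−4.89 ± 0.43 from D11 to D45, adjusted p = 0.00049). KCNK10, a relative of KCNK2, was lower on D45 (36.6 and 32.4 CPM) than on D28 (41.4 and 56.9 CPM), by −0.65 ± 0.16 (adjusted p = 0.0485). That call was lost without any of D11 A, D11 B, D45 A and D45 B and, among the settings on all libraries, with RLE size factors (adjusted p = 0.0518), with all deposited barcodes (adjusted p = 0.0501) or without the filter on low counts (adjusted p = 0.0544).

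Of the 5 calcium- or sodium-activated genes 1 rose and none fell from D11 to D45, close to the 17.3% of all genes that rose. This was KCNMA1, the large-conductance channel that couples calcium entry to repolarisation, at 9.21 and 9.59 CPM on D11, 47.5 and 52.1 CPM on D28 and 111 and 88.5 CPM on D45. The days did not overlap (2.99 ± 0.18, adjusted p = 0.000187). The silent subunits gave 5 rises and 1 fall among 8, against 17.3% and 17.4% of all genes. KCNS3, which modifies KCNB channels, went from 0.164 and 0.139 CPM through 2.42 and 1.40 CPM to 10.6 and 6.71 CPM (D11 to D45 5.42 ± 0.48, adjusted p = 0.000515). KCNF1 and KCNS2, other silent subunits, had few molecules on D11. KCNF1 had 3 and 2 UMIs in the D11 libraries, 41 and 20 in those of D28 and 55 and 98 in those of D45, and the ratio of summed D45 to D11 levels was 42.2 (exact interval 17.7 to 132). KCNS2 had 4 and 2 UMIs on D11 and 57 and 25 on D28, a ratio of 19.9 (exact interval 8.75 to 55.7). KCNF1 and KCNS2 met the rule of at least 50 UMIs mainly through D28 and D45, so that the rule sets part of these contrasts. The D11 to D28 calls of both were lost without D11 A or D11 B, and for genes this close to 0 the fitted change depends on the prior count, so that the ratio of counts is given instead. KCNG1, which had most UMIs among the silent genes, was lower after D11, with 4.66 and 4.61 CPM on D11, 2.86 and 1.68 CPM on D28 and 2.52 and 2.62 CPM on D45 (D11 to D28 −1.26 ± 0.36, adjusted p = 0.0438). That call did not pass without D11 A, D11 B, D45 A or D45 B.

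Of the auxiliary genes 6 of 13 rose and 1 fell between D11 and D45, against 17.3% and 17.4% of all genes. KCNIP4, a calcium-binding partner of the KCND channels, held 14.2 and 11.1 CPM on D11, 73.0 and 156 CPM on D28 and 407 and 343 CPM on D45. It rose by 2.87 ± 0.31 (adjusted p = 0.00171) and then by 1.60 ± 0.30 (adjusted p = 0.0261), the second of which did not pass without D11 A, D11 B, D45 A or D45 B. Its relative KCNIP3 went from 1.25 and 0.866 CPM through 4.01 and 11.3 CPM to 32.9 and 28.1 CPM (D11 to D45 4.44 ± 0.45, adjusted p = 0.000782). KCNE4, a single-span regulator of voltage-gated channels, had 3 and 4 UMIs in the D11 libraries, 274 and 121 in those of D28 and 201 and 376 in those of D45. Its summed D28 level was 82.0 times that of D11 (exact interval 39.4 to 205). KCNE4 met the rule of at least 50 UMIs mainly through D28 and D45, so that the rule sets part of this contrast too. KCNMB1, an accessory subunit of the KCNMA1 channel, was transient, at 0.0442 and 0.0389 CPM on D11, 1.25 and 0.469 CPM on D28 and 0.0845 and 0.126 CPM on D45. It met the rule of at least 50 UMIs mainly through D28, since the kept cells of D11 and D45 held 7, 7, 10 and 16 UMIs. The rule thus sets part of this contrast. D28 lay above both other days (4.14 ± 0.68 from D11, adjusted p = 0.00712, and −3.21 ± 0.63 to D45, adjusted p = 0.0289). KCNMB1 overlaps KCNIP1 on the opposite strand, and its calls did not pass without D11 A or D11 B. KCNAB2, a cytoplasmic beta subunit, fell from 23.0 and 22.5 CPM on D11 to 9.89 and 15.3 CPM on D28 (−1.13 ± 0.19, adjusted p = 0.0078), a call that did not pass without D11 A or D11 B. KCNE4 was higher in D28 A, and so were the fibroblast markers. In both D28 libraries its level in cells with at least 2 UMIs of the collagen gene COL3A1 was 7.50 and 7.95 CPM. The part of the fibroblast markers in the D28 result was not tested.

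**Figure D2:**
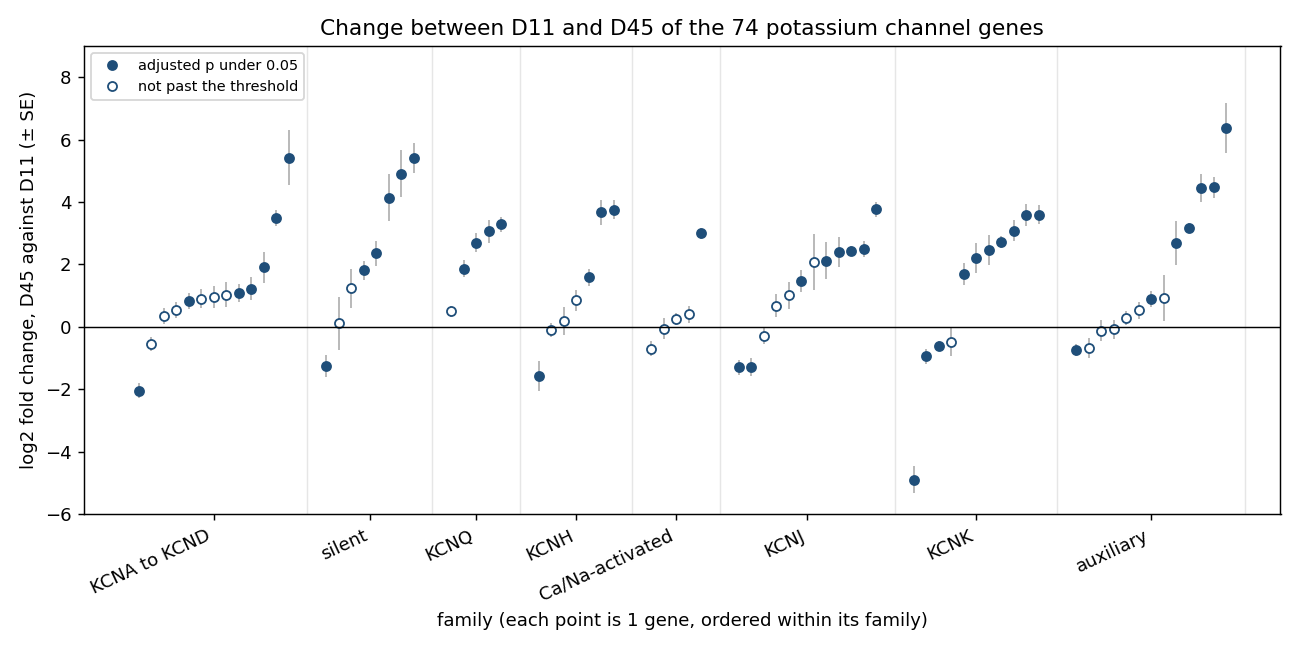
Changes of the 74 potassium channel genes from D11 to D45 in whole organoids, grouped by family along the x axis. The y axis is the log2 fold change, bars are ± 1 SE of the edgeR fit, and filled points have an adjusted p under 0.05. Calls of a rise outnumbered calls of a fall in each of the 8 families, with KCNQ at 4 to 0 and KCNK at 7 to 3. Of all genes tested, 17.3% rose and 17.4% fell.

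The next question was how far these genes went with STMN2. Within each library, cells with at least 1 STMN2 UMI were compared with cells with none, the library being kept in the model, and the mean of the 3 daily differences was tested over 21662 genes. Of 73 members tested, 42 were higher and 10 lower in STMN2-positive cells, whereas 21.4% of all genes were higher and 27.3% lower. Leaving out any 1 library gave 37 to 41 higher and 8 to 13 lower. With at least 3 STMN2 UMIs against 0, 44 of 72 members were higher and 12 lower. The shares of all genes just given belong to the fit with 1 UMI and all libraries. The median difference was 0.35 for members and −0.03 for all genes. Summed over the 74 members, STMN2-positive cells held 1044, 854, 1227, 1968, 2568 and 2418 CPM from D11 A to D45 B, against 696, 591, 753, 1162, 1970 and 1677 CPM in STMN2-negative cells, and were higher in 6 of 6 libraries. STMN2-positive cells were deeper than negative cells in every library, most so in D28 A, where the medians were 6048 and 1099 UMIs. Neuron markers summed to 79.2 and 59.7 CPM in STMN2-negative D11 cells and to 480 and 368 CPM in STMN2-negative D45 cells, against 2130 to 3004 CPM in positive cells and 3018 to 5822 CPM in cells with at least 3 STMN2 UMIs. STMN2 is among these markers, so that the split itself sets part of the contrast. The part of depth and of neuronal RNA in the negative cells was not tested.

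Of the KCNH genes 6 of 7 were higher and none lower in STMN2-positive cells, and 10 of the 13 KCNA to KCND genes were higher and 1 lower. The shares of all genes were 21.4% higher and 27.3% lower. KCNJ6 gave the largest difference after the low-count gene KCNH6. Its level was 44.0, 29.3, 85.2, 96.9, 106 and 101 CPM in positive cells and 1.33, 1.50, 12.3, 11.4, 53.6 and 36.1 CPM in negative cells, from D11 A to D45 B. All 6 positive values exceeded their negative partners (2.86 ± 0.09, adjusted p = 2.23e-08). KCNH6 held 0.107 to 1.16 CPM in positive and 0 to 0.0434 CPM in negative cells (3.27 ± 0.45, adjusted p = 0.000219). In negative cells it had 4, 5, 1, 0, 1 and 1 UMIs from D11 A to D45 B, and KCNS2 had 0, 1, 3, 1, 8 and 4. The fitted differences of both therefore depend on the prior count. Both met the rule of at least 50 UMIs mainly through positive cells, so that the rule sets part of these contrasts. KCNS2 differed by 2.20 ± 0.52 (adjusted p = 0.00581), with 0.0154 to 0.645 CPM against 0 to 0.313 CPM, but did not pass without D11 A (adjusted p = 0.184) or without the 5% of cells with most UMIs (adjusted p = 0.054). The acid-sensitive leak channel KCNK3, with 2.05 to 6.12 CPM against 0.293 to 2.58 CPM, differed by 1.95 ± 0.13 (adjusted p = 1.86e-06). KCNJ3, with 2.53 to 25.7 CPM against 0.426 to 15.7 CPM, differed by 1.86 ± 0.06 (adjusted p = 2.13e-08). These 3 genes, KCNH6 and KCNJ6 were higher in positive cells in 6 of 6 libraries.

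Of the 10 members lower in STMN2-positive cells, KCNJ8, KCNQ1 and KCNMB1 are the ones named here. KCNJ8, the pore of ATP-sensitive channels of vessels and mesenchyme, held 1.36, 1.26, 8.28, 5.12, 5.31 and 6.92 CPM in positive and 1.82, 2.22, 11.9, 6.79, 7.08 and 8.50 CPM in negative cells from D11 A to D45 B (−0.58 ± 0.07, adjusted p = 0.000101). All 6 pairs had the lower value in positive cells. KCNQ1, a cardiac and epithelial channel, differed by −0.57 ± 0.11 (adjusted p = 0.00221) and did not pass after each cell was thinned to 1000 UMIs (adjusted p = 0.699). KCNMB1 differed by −1.42 ± 0.35 (adjusted p = 0.00794), and did not pass with DCX in place of STMN2 (adjusted p = 0.611) or without D45 B.

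Whether the difference between STMN2-positive and STMN2-negative cells itself changed from D11 to D45 was tested in the same model. It moved up for 8 members, by growing, becoming less negative or turning positive. It moved down, by shrinking, turning negative or becoming more negative, for 17 of the 73 tested. The shares of all genes were 7.95% up and 7.71% down. With at least 3 STMN2 UMIs against 0, it moved up for 11 and down for 25 of 72, and the shares of all genes just given belong to the fit with 1 UMI. The median of this change was −0.21 for members and 0.06 for all genes. The counts in both directions moved when 1 library was left out, a fit with only 1 library on that day. KCNJ6 changed most. On D11 the positive cells exceeded the negative cells by 4.55 ± 0.18, on D28 by 2.83 ± 0.16 and on D45 by 1.19 ± 0.14, so that the D45 minus D11 change was −3.36 ± 0.23 (adjusted p = 2.01e-05). In the negative cells KCNJ6 rose from 1.33 and 1.50 CPM on D11 to 53.6 and 36.1 CPM on D45 (4.68 ± 0.28, adjusted p = 0.000353), whereas the rise in positive cells was 1.21 ± 0.21 (adjusted p = 0.00651). On D45, KCNJ6 stood at 23.4 and 13.0 CPM in STMN2-negative cells with at least 2 UMIs of AQP4, and at 57.8 and 39.5 CPM in the remaining negative cells, whose median depth was 1066 and 1396.5 UMIs. The rise in positive cells did not pass when cells needed at least 3 STMN2 UMIs (adjusted p = 0.18) or without D11 B, D45 A or D45 B.

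KCNK12 gave a similar picture. It held 2.83 and 2.33 CPM in positive against 0.240 and 0.400 CPM in negative D11 cells, and 15.1 and 16.8 CPM against 19.2 and 19.8 CPM on D45. The D11 difference of 2.88 ± 0.22 passed (adjusted p = 1.2e-05), the D45 difference of −0.33 ± 0.13 did not (adjusted p = 0.0862), and the change between them was −3.21 ± 0.26 (adjusted p = 5.49e-05). The corresponding change was −1.91 ± 0.30 for KCNK3 (adjusted p = 0.00288), −1.77 ± 0.15 for KCNJ3 (adjusted p = 8.3e-05) and −0.86 ± 0.16 for KCNC2 (adjusted p = 0.00587), the last of which did not pass without D11 B (adjusted p = 0.0629). KCNIP1, a partner of KCND channels that overlaps KCNMB1 on the opposite strand, changed by −1.63 ± 0.13 (adjusted p = 5.44e-05). In all of these except KCNK12 the positive cells were still higher on D45. The genes with most UMIs in their families also changed in 5 further cases. KCNQ3 held 25.1 and 17.2 CPM in positive against 9.97 and 7.45 CPM in negative D11 cells, and 161 and 163 CPM against 171 and 165 CPM on D45 (−1.25 ± 0.08, adjusted p = 1.53e-05). KCNH7 changed by −1.45 ± 0.20 (adjusted p = 0.00141) and KCNMA1 by −1.21 ± 0.15 (adjusted p = 0.000613). KCNG1 changed by −1.12 ± 0.19 (adjusted p = 0.00475) but did not pass with DCX (adjusted p = 0.132), after thinning (adjusted p = 0.487) or without D11 A. KCND2 changed by −0.51 ± 0.13 (adjusted p = 0.0283), with DCX the sign turned (0.15, adjusted p = 0.528), and the call was lost without D11 B, D45 A or D45 B.

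In the opposite direction, KCNN2, a small-conductance calcium-activated channel, was lower in positive cells on D11 (17.7 and 19.0 against 22.6 and 21.5 CPM) and higher on D45 (20.6 and 17.9 against 11.3 and 9.03 CPM). Its change was 1.26 ± 0.11 (adjusted p = 0.000113). KCND3 turned in the same way, with 81.1 and 71.8 against 107 and 89.0 CPM on D11 and 30.3 and 32.3 against 22.9 and 23.5 CPM on D45 (0.85 ± 0.09, adjusted p = 0.000218). KCNK1 turned too, with 11.9 and 13.2 against 15.9 and 17.0 CPM on D11 and 11.1 and 11.3 against 8.45 and 8.50 CPM on D45. The difference also grew for the fast-firing channel gene KCNC1 (1.06 ± 0.14, adjusted p = 0.00109), which did not pass after thinning to 1000 UMIs (adjusted p = 0.143), and for KCNA3 (0.91 ± 0.17, adjusted p = 0.00798), which did not pass without D11 A or D45 B. KCNK1 changed by 0.86 ± 0.20 (adjusted p = 0.0175) and did not pass with DCX (adjusted p = 0.239) or without any of D11 A, D11 B, D45 A and D45 B.

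**Figure D3:**
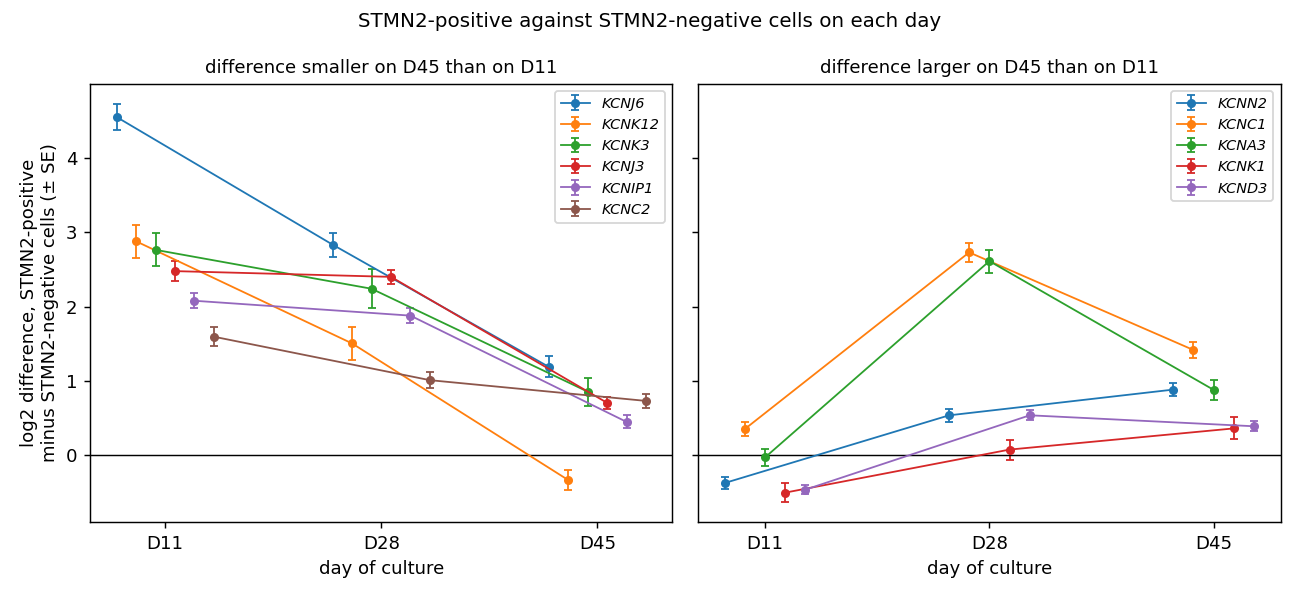
Difference between STMN2-positive and STMN2-negative cells on each day for 11 genes whose difference changed between D11 and D45, namely the 5 with the largest change in each direction and KCNC2. The x axis is the day, with points set side by side within a day, the y axis is the log2 difference, bars are ± 1 SE of the edgeR fit, and lines join the values of 1 gene. KCNJ6 went from 4.55 to 1.19 and KCNN2 from −0.38 to 0.88.

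Day differences were also tested within each class of cell, which removes the changed share of STMN2-positive cells but not changes in the cells within a class. Cells with at least 2 GAD2 UMIs numbered 17 of 3940 and 23 of 7196 positive cells on D11, and 1594 of 14474 and 1027 of 12619 on D45. Cells with at least 2 SOX10 UMIs numbered 11 of 10767 and 7 of 14357 negative cells on D11, and 406 of 5620 and 458 of 5806 on D45. Their part in the day differences was not tested. In positive cells 33 of 73 members were higher and 6 lower on D45 than on D11, against 14.2% and 13.0% of all 21391 genes tested. In negative cells 34 of 65 were higher and 9 lower, against 19.5% and 15.8% of 18641 genes. The median change was 0.88 in positive cells, also with KCNA1 (0 UMIs on D11) at its lower bound, and 1.65 in negative cells, and 0.05 and 0.02 for all genes. With at least 3 STMN2 UMIs, 26 of 71 members were higher and 6 lower in positive cells, without a share of all genes from that fit to set beside them. After each cell was thinned to 1000 UMIs, 18 of 50 members tested were higher and 2 lower in positive cells, beside 1389 and 1759 of 14613 genes. Both sets of counts depended on single libraries. In positive cells 20, 17 and 19 were higher without D11 A, D11 B and D45 B, and from 1 (without D45 A) to 10 (without D28 A or D28 B) were lower. In negative cells 22 were higher without D11 B, and 3 to 5 were lower without D11 A, D11 B, D45 A or D45 B. The counts over all genes moved likewise, with 812 of 22260 higher in positive and 1281 of 19477 higher in negative cells without D11 B.

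Several genes rose in both classes. KCNS3 went from 0.242 and 0.0770 CPM to 8.80 and 5.66 CPM in positive cells and from 0.133 and 0.174 CPM to 17.3 and 9.81 CPM in negative cells. The rises were 5.27 ± 0.68 (adjusted p = 0.00217) and 6.14 ± 0.46 (adjusted p = 0.000514). KCNIP3 rose by 4.38 ± 0.39 (adjusted p = 0.000622) and 4.94 ± 0.58 (adjusted p = 0.00155). KCNE4 went from 1 UMI in each D11 library to 91 and 251 UMIs in D45 A and B in positive cells, a ratio of summed levels of 101 (exact interval 27.6 to 834), and its call in positive cells was lost without D11 A (adjusted p = 0.0504) or D11 B (adjusted p = 0.0668). KCNK5 fell in both, to 0.0862 and 0.116 CPM in positive D45 cells from 1.62 and 2.08 CPM on D11 (−4.48 ± 0.47, adjusted p = 0.00106), and by 4.68 on the log2 scale in negative cells (SE 0.57, adjusted p = 0.00174). KCND3 also fell in both, by −1.58 ± 0.24 (adjusted p = 0.00407) and −2.36 ± 0.23 (adjusted p = 0.000871), although its fall in positive cells did not pass with at least 3 STMN2 UMIs (adjusted p = 0.0792), after thinning (adjusted p = 0.0506) or without D45 A. KCNA1 had no UMI in positive D11 cells and 46 in positive D45 cells, which is at least 9.02-fold higher when 3 UMIs over both D11 libraries are taken as the floor. Its inclusion under the rule of at least 50 UMIs rested on D45, so that the rule sets part of this contrast. The call was lost without any of D11 A, D11 B, D45 A and D45 B (adjusted p from 0.0662 to 0.0915).

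Cells gated by 1 marker gene gave the levels in narrower groups on D28 and D45. Each gate took cells with at least 2 UMIs of its gene and compared them with the other cells of the same STMN2 class in the same library. Libraries of D28 and D45 with at least 50 gated cells were used. D11 was left out of these tests by choice, although D11 A held 357 TH-positive cells. No doublet caller was run, and gated cells were deeper than their comparison cells in each library tested, except for GAD2 in D28 B, where the medians were 8259 and 8309 UMIs. In D45 A and B the median was 11116.5 and 9963 UMIs in TH-positive cells against 3408 and 5504.5 UMIs in the other STMN2-positive cells. The summed dopaminergic markers in the TH gate were 1283, 882, 452 and 1051 CPM from D28 A to D45 B, against 69 to 134 CPM in the other cells. TH is among these markers, so that the gate itself raises this sum. GABAergic markers were also higher there, at 11.7, 209, 459 and 285 CPM against 5.1 to 173 CPM. The part of depth and of mixed cells in the results that follow was not tested directly. Removing the 5% of cells with most UMIs or the cells with markers of 2 types is among the settings described at the end. The latter took out only cells with at least 3 STMN2 UMIs and at least 2 UMIs of AQP4, SOX10, COL3A1 or TOP2A. It therefore removed no cell from the AQP4 and SOX10 comparisons and did not look for TH with GAD2. The TH and GAD2 comparisons needed only 1 STMN2 UMI, which 60.9% to 63.4% of COL3A1 cells held on these days. The part of such cells was not tested.

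In TH-positive cells, 26 of 68 members tested were higher and 7 lower than in the other STMN2-positive cells, against 17.5% and 17.8% of 18920 genes. The median difference was 0.35 for members and 0.00 for all genes. The number higher was 16 without D28 A or D28 B and 17 without D45 B, whereas the shares of all genes just given belong to the fit on all 4 libraries. Among the KCNA to KCND genes 8 of 13 were higher and none lower. KCNJ6 held 190, 262, 175 and 235 CPM in TH-positive cells from D28 A to D45 B and 76.3, 81.6, 103 and 90.9 CPM in the other STMN2-positive cells. All 4 TH-positive values lay above all 4 others (1.32 ± 0.14, adjusted p = 0.000479). In TH-positive cells of D11 A and B, which were not tested, KCNJ6 already stood at 154 and 106 CPM. KCNIP4 held 135, 556, 887 and 991 CPM against 72.7, 136, 416 and 352 CPM, higher in each library (1.41 ± 0.18, adjusted p = 0.00103). KCNMA1 held 122, 174, 188 and 250 CPM against 50.7, 56.8, 118 and 90.6 CPM (1.29 ± 0.15, adjusted p = 0.00069). KCNK4, a mechanosensitive leak channel that overlaps CATSPERZ on the same strand, differed by 1.44 ± 0.25 (adjusted p = 0.004), with 2.26 to 5.64 CPM against 0.872 to 1.74 CPM. The A-type channel gene KCNA4 differed by 1.28 ± 0.17 (adjusted p = 0.00145), with 4.56 to 6.27 CPM against 1.80 to 2.44 CPM.

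The 5 members named as lower in TH-positive cells were KCNIP3, KCNE4, KCNJ8, KCNS3 and KCNJ10. KCNIP3 held 2.13, 2.60, 9.79 and 5.78 CPM against 4.15, 10.3, 31.3 and 26.7 CPM and was lower in each library (−1.76 ± 0.20, adjusted p = 0.000694). KCNS3 held 0.26 to 1.76 CPM against 1.17 to 9.12 CPM (−2.29 ± 0.24, adjusted p = 0.000496), and KCNJ8 held 0.651 to 2.37 CPM against 5.48 to 8.82 CPM (−2.09 ± 0.25, adjusted p = 0.000869). KCNE4 was represented by 2 or 3 UMIs per library in the TH gate (−2.03 ± 0.37, adjusted p = 0.00523), so that its fitted difference depends on the prior count. KCNJ10 had 4 UMIs over the TH-positive cells and 336 over the others, and its summed level was 6.23 times higher in the others (exact interval 2.41 to 23.0). From D28 A to D45 B, KCNC2 held 26.7, 36.1, 41.9 and 69.8 CPM in TH-positive cells. All STMN2-positive cells held 18.4, 18.6, 47.1 and 41.1 CPM, so that the TH-positive cells were lower in D45 A. The fitted KCNC2 difference was 0.63 ± 0.19 in favour of TH-positive cells (adjusted p = 0.0356). That call was lost without the cells with most UMIs (adjusted p = 0.314), without the filter on low counts (adjusted p = 0.0567) and without D28 A, D28 B or D45 B. In GAD2-positive cells KCNC2 stood at 70.5 and 77.8 CPM on D45.

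GAD2 encodes an enzyme that makes GABA. In GAD2-positive cells 27 of 66 members were higher and 9 lower than in the other STMN2-positive cells, against 14.2% and 22.5% of 18928 genes. The median difference was 0.37 for members and −0.03 for all genes, and 4 and 5 members were lower without D45 A and without D45 B. The shares of all genes just given belong to the fit on all libraries of the gate. Of the KCNA to KCND genes 8 of 12 were higher and none lower, whereas 2 of the KCNJ genes were higher and 5 lower. D28 A had only 53 GAD2-positive cells. KCNH8, whose channels open slowly near the resting potential, held 90.1, 262, 172 and 178 CPM against 34.6, 111, 66.7 and 61.1 CPM, higher in each library (1.27 ± 0.09, adjusted p = 2.85e-05). The delayed rectifier KCNB2 held 228, 644, 460 and 568 CPM against 109, 252, 239 and 205 CPM (1.09 ± 0.12, adjusted p = 0.000169). The values of both genes were higher in the gate in 4 of 4 libraries. KCNJ6 held 118, 135, 184 and 219 CPM in GAD2-positive cells against 85.0, 93.7, 90.9 and 88.3 CPM in the others, and all 4 gated values lay above all 4 others (0.75 ± 0.15, adjusted p = 0.00482). On D45 these levels stood beside 175 and 235 CPM in TH-positive cells, and the TH and GAD2 gates were not tested against each other. KCNIP4 held 79.5, 469, 866 and 1012 CPM and was close to its comparison level of 77.6 CPM only in D28 A (1.15 ± 0.24, adjusted p = 0.00519), and KCNMA1 differed by 1.08 ± 0.09 (adjusted p = 6.93e-05).

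The members named as lower in the GAD2 gate were KCNIP3, KCNS3, KCNJ8, KCNE4 and KCNJ10, each of which was also named in the TH gate. The TH and GAD2 comparisons share cells in their reference groups and are not independent. KCNIP3 differed by −2.05 ± 0.17 (adjusted p = 5.84e-05), KCNJ8 by −2.53 ± 0.22 (adjusted p = 7.79e-05) and KCNS3 by −2.30 ± 0.32 (adjusted p = 0.000705). KCNE4 had 3 UMIs over all GAD2-positive cells and 575 over the others, a ratio of 18.5 (exact interval 6.28 to 89.8). KCNJ10 differed by −2.22 ± 0.40 (adjusted p = 0.00257) and did not pass with DESeq2 (adjusted p = 0.0526) or without D45 A (adjusted p = 0.0548).

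Among STMN2-negative cells, AQP4, the water channel of astrocytes, marked 215 and 312 cells in D45 A and B. Their astrocyte markers summed to 2148 and 1926 CPM against 423 and 382 CPM in the other negative cells, and their median depth was 13493 and 13455.5 UMIs against 1066 and 1396.5 UMIs. AQP4 is among these markers, so that the gate itself raises the sum. The part of depth was not tested. Of 56 members tested, 10 were higher and 15 lower, against 17.9% and 14.5% of 15863 genes, and the median difference was −0.19 for members and −0.01 for all genes. DESeq2 called 5 higher, without a share of all genes from that fit to set beside them. KCNJ8 held 18.9 and 20.1 CPM in AQP4-positive cells against 5.47 and 6.80 CPM (1.80 ± 0.21, adjusted p = 0.000372), and KCNK13 12.4 and 8.33 CPM against 4.35 and 4.08 CPM (1.41 ± 0.27, adjusted p = 0.00522). KCNQ3 was higher by 1.06 ± 0.09 (adjusted p = 9.49e-05) and KCNK2 by 0.70 ± 0.12 (adjusted p = 0.00251). KCNJ10, a channel that astrocytes use to clear potassium, did not pass (−0.20 ± 0.45, adjusted p = 0.766). KCNA3, a delayed rectifier best known in lymphocytes and microglia, was lower by −2.44 ± 0.47 (adjusted p = 0.00468) and KCNN2 by −1.50 ± 0.29 (adjusted p = 0.0047). Both calls rested on few UMIs in the gate, with 5 and 2 for KCNA3 and 14 and 11 for KCNN2 in D45 A and B.

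Further calls in AQP4-positive cells also rested on few UMIs, from 1 to 19 per library in the gate for the 5 genes that follow. KCNU1 had 5 and 4 UMIs there (2.90 ± 0.78, adjusted p = 0.0217), and DESeq2 gave it no adjusted p. KCNJ16 (1.28 ± 0.38, adjusted p = 0.0334) and KCNG1 (1.19 ± 0.38, adjusted p = 0.041) were higher, and KCNG2 (−2.02 ± 0.54, adjusted p = 0.0212) and KCNK9 (−2.22 ± 0.60, adjusted p = 0.0221) lower. None of these 4 passed with DESeq2, where their adjusted p ranged from 0.127 for KCNG2 to 0.293 for KCNJ16. Without the cells with most UMIs the calls of KCNG1 (adjusted p = 0.183), KCNG2 (adjusted p = 0.0533) and KCNJ16 (adjusted p = 0.0502) were lost. KCNC2 did not pass (0.20 ± 0.15, adjusted p = 0.352) but did after removal of the cells with most UMIs (0.73, adjusted p = 0.00131).

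SOX10 encodes a transcription factor of the oligodendrocyte lineage, and its gate held 100 cells in D28 B and 406 and 458 cells in D45 A and B. Markers of that lineage summed to 1706, 3522 and 2964 CPM against 30.8, 249 and 211 CPM in the other STMN2-negative cells, dividing-cell markers to 629, 392 and 367 CPM against 152, 153 and 187 CPM, and the median depth was 11006.5, 12421 and 11061 UMIs against 6788, 1010.5 and 1314 UMIs. SOX10 is among the lineage markers, so that the gate itself raises their sum. The part of depth and of dividing cells was not tested. On D45 the AQP4 and SOX10 comparisons share reference cells, and each reference holds cells of the other gate. They are therefore not independent. Of 55 members tested, 6 were higher and 23 lower, against 15.7% and 20.4% of 15510 genes, and the median difference was −0.84 for members and −0.04 for all genes. The number higher was 10 without D28 B, and the number lower 15 without D45 A or with a gate of at least 1 SOX10 UMI. The shares of all genes just given belong to the fit with at least 2 UMIs on all libraries of the gate.

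KCND2 held 1598, 865 and 1049 CPM in SOX10-positive cells of D28 B, D45 A and D45 B against 125, 262 and 259 CPM. All 3 gated values lay above all others (2.57 ± 0.38, adjusted p = 0.00423), although the call was lost with a gate of at least 1 SOX10 UMI (adjusted p = 0.0985). KCND2 was not high in this gate alone. Cells with at least 2 UMIs of the division gene TOP2A held it at 633, 857 and 777 CPM in the same libraries. The part of dividing cells in the KCND2 result was not tested. Its partner KCNIP3 held 144, 109 and 114 CPM against 11.2, 24.5 and 21.1 CPM (2.84 ± 0.29, adjusted p = 0.0013). KCNS3 gave the largest rise, with 29.7, 54.2 and 39.0 CPM against 1.22, 7.69 and 4.01 CPM (3.53 ± 0.33, adjusted p = 0.000943). KCNJ10 held 3.40, 6.79 and 7.53 CPM against 0.464, 1.68 and 1.50 CPM (2.40 ± 0.32, adjusted p = 0.00307), and KCNA3 5.95, 13.4 and 12.8 CPM against 2.12, 4.49 and 2.85 CPM (1.91 ± 0.26, adjusted p = 0.0034). For each of these genes the gated and other values did not overlap.

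KCNJ6, KCNIP4 and KCNQ3 were lower in SOX10-positive cells, by −2.40 ± 0.36 (adjusted p = 0.00446), −2.51 ± 0.33 (adjusted p = 0.00287) and −2.50 ± 0.38 (adjusted p = 0.00491), the last of which did not pass with a gate of at least 1 SOX10 UMI (adjusted p = 0.0599). KCNN2 held 0.85, 1.13 and 0.941 CPM against 16.4, 14.0 and 10.6 CPM (−3.53 ± 0.30, adjusted p = 0.000725). KCNJ8 was lower by −2.93 ± 0.34 (adjusted p = 0.00193), and KCNH5 by −2.65 ± 0.56 (adjusted p = 0.0146), the latter not without D45 A. KCNG2 and KCNE4 each had 1 UMI over all SOX10-positive cells against 265 and 289 UMIs in the others. The ratio of the summed levels was 38.4 for KCNG2 (exact interval 6.83 to 1521) and 41.8 for KCNE4 (exact interval 7.45 to 1658).

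**Figure D4:**
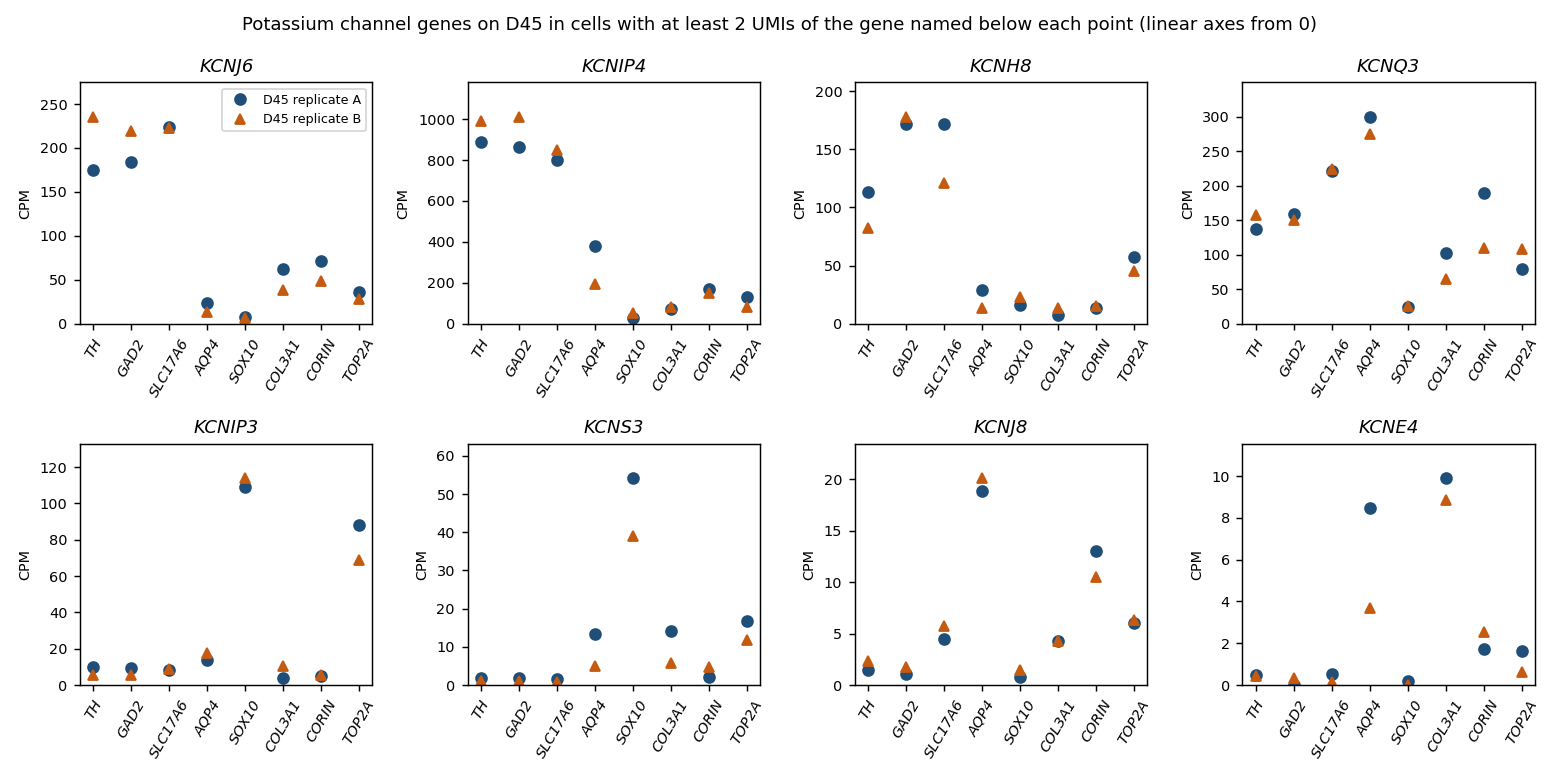
Levels of 8 potassium channel genes in D45 cells with at least 2 UMIs of a marker gene. The x axis names the marker, the y axis is CPM, and each point is replicate A or B. KCNJ6 was at 175 and 235 CPM in TH-positive cells and at 6.96 to 7.93 CPM in SOX10-positive cells, whereas KCNS3 was at 39.0 and 54.2 CPM in SOX10-positive cells.

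Other markers were read without a test, in any cell with at least 2 UMIs of the gene. In cells with SLC17A6, the vesicular glutamate transporter, KCNJ6 stood at 223 and 223 CPM in D45 A and B and KCNIP4 at 802 and 850 CPM. KCNC2 in these cells went from 30.9 and 58.5 CPM on D11 to 109 and 86.8 CPM on D45. Cells with the floor plate gene CORIN, which numbered 4135 and 5544 on D11 and 200 and 437 on D45, held KCNJ6 at 1.57 and 2.04 CPM on D11 and 71.5 and 48.6 CPM on D45. KCNJ13 and KCNN2 were high in CORIN cells on D11, at 28.2 and 28.3 CPM and at 33.8 and 31.3 CPM, and stood at 7.10 and 7.33 CPM and at 7.10 and 16.0 CPM on D45. KCND3 likewise went from 130 and 106 CPM to 49.1 and 27.1 CPM in CORIN cells.

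In cells with TOP2A, which marks division, KCNK5 held 3.58 and 3.57 CPM on D11 and at most 1 UMI per library on D45. KCNS3 in these cells went from 0.267 and 0.212 CPM on D11 to 16.8 and 11.7 CPM on D45. In COL3A1 cells, present in number only on D28 and D45, KCNE4 stood at 7.50, 7.95, 9.90 and 8.87 CPM from D28 A to D45 B, against 1.70 and 2.96 CPM in whole D45 organoids. Cells with FOXJ1, a gene of ciliated cells, held KCNJ8 at 18.1 and 22.0 CPM on D45, close to the level in AQP4-positive cells. These values have no replicate test, and cells with 2 markers count in both groups.

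**Figure D5:**
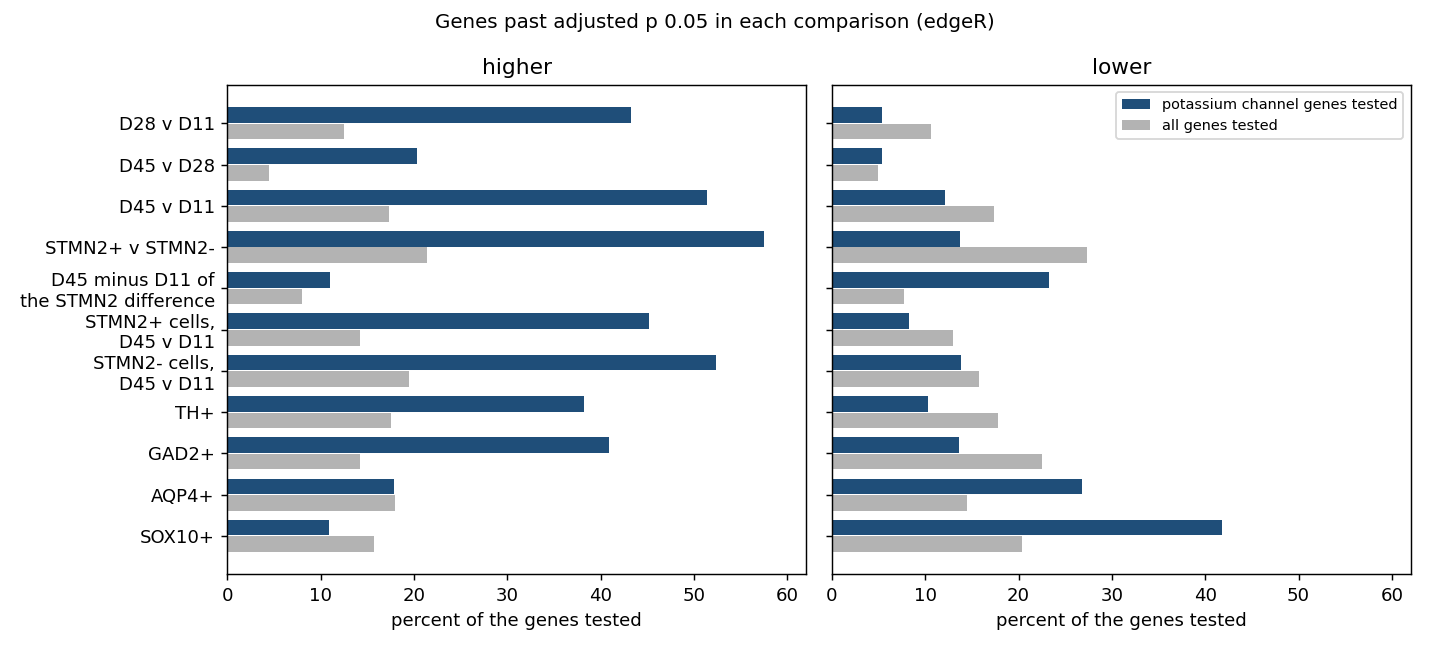
Share of potassium channel genes and of all genes tested that passed in each comparison. The x axis is the percent of tested genes called higher (left) or lower (right) by edgeR at an adjusted p under 0.05, each row is 1 comparison, and dark and grey bars are the potassium channel genes and all genes. From D11 to D45, 38 of 74 members rose against 17.3% of all genes, and in SOX10-positive cells 23 of 55 were lower against 20.4%.

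Potassium channels work with other proteins that set the ion gradients and channel position, and a list of 25 such partners (sodium pump subunits, chloride and potassium transporters, accessory proteins, sulfonylurea receptors, HCN channels and axonal anchors) was read in the same fits. Of these, 18 were named in the files and tested. Between D11 and D45, 5 of the 18 rose and 1 fell, against 17.3% and 17.4% of all genes. SLC12A5, the potassium and chloride exporter of mature neurons, rose by 1.76 ± 0.21 (adjusted p = 0.00135), and DPP6, an accessory subunit of KCND channels, by 1.55 ± 0.22 (adjusted p = 0.00248). ABCC9, the sulfonylurea receptor that pairs with KCNJ8, rose by 2.62 ± 0.35 (adjusted p = 0.00191), and LGI1, a secreted regulator of KCNA channels, fell by 1.85 on the log2 scale (SE 0.22, adjusted p = 0.00136). Between D28 and D45 no partner passed with edgeR, 1 had an unadjusted p under 0.05, and DESeq2 called 1.

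In STMN2-positive cells 12 of 17 partners tested were higher and 2 lower than in STMN2-negative cells, against 21.4% and 27.3% of all genes. DPP10 differed by 2.17 ± 0.07 (adjusted p = 2.21e-08) and CNTN2, an axonal adhesion protein beside KCNA channels, by 1.91 ± 0.07 (adjusted p = 3.46e-08). ABCC9 and the pump subunit ATP1B2 were lower, by −0.97 ± 0.16 (adjusted p = 0.000828) and −0.30 ± 0.04 (adjusted p = 0.000316). In TH-positive cells 11 of 16 were higher and 2 lower, against 17.5% and 17.8% of all genes, and ABCC9 was among those lower (−2.35 ± 0.57, adjusted p = 0.016). In AQP4-positive cells ABCC9 was higher by 2.38 ± 0.38 (adjusted p = 0.00207), as was KCNJ8 in the same cells, and ABCC8, the neuronal sulfonylurea receptor, lower by −2.22 ± 0.38 (adjusted p = 0.00289). The GAD2 gate gave 8 higher and 3 lower of 16, against 14.2% and 22.5% of all genes. The AQP4 gate gave 6 and 7 of 16, against 17.9% and 14.5%, and the SOX10 gate 2 and 6 of 16, against 15.7% and 20.4%. The GAD2 count of lower genes and the SOX10 count of higher genes were close to these shares.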

How the data were processed

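Single-cell libraries were made by the authors with the 10x GEM-X 3′ chemistry, which does not read whole transcripts, and the deposited values are UMI counts per gene and cell from Cell Ranger 8.0.1 on Sscrofa11.1, not normalized. The submitters' notes also name Seurat 4.3.0. Cells with 200 to 7000 genes and at most 10% of UMIs from 37 mitochondrial genes were kept, after the study's limits. Counts were summed per library and cell group and tested with edgeR 4.0.16 (R 4.3.3, TMM scaling, filterByExpr, quasi-likelihood test, Benjamini-Hochberg adjustment over all genes tested, threshold 0.05), the SE being the log2 change divided by the square root of F. DESeq2 1.42.0 was an alternative, and python 3.11.15 with numpy 2.4.6, scipy 1.17.1, pandas 2.3.3 and matplotlib 3.10.9 did the rest. Library totals of 106805311 to 180034791 UMIs set the precision, and exact intervals cover counting error only. The fits were also run on simulated counts, drawn with the same spread for every gene and library. Those runs do not measure the spread between the libraries used here.

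Named genes were KCNJ6 and KCNC2, which the study names, in each comparison up to 5 rises and 5 falls of largest size among called members whose libraries did not overlap (for paired sums, that moved the same way in every library), and the member with most UMIs in each family. Genes outside this rule that are given with values, such as KCNJ5, KCNJ9 and KCNK2 in the gates, were chosen after their values were seen. The members, lists and marker gates were chosen with earlier results of these data known. Gene overlaps and coding bases came from RefSeq. Protein sequences were not used here, and some genes and sequences are not reported here.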

Additional observations from a re-analysis of the deposited data

Results flagged for a closer look

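The difference between STMN2-positive and STMN2-negative cells itself moved up from D11 to D45 in 8 and down in 17 of the 73 potassium channel genes tested, by the test of the change in edgeR with adjustment over all genes. Of all genes, 7.95% and 7.71% did so, and the share of members that moved up was near that of all genes. The 16 chosen by the rule for named genes are given here. KCNN2, KCNK1 and KCND3 turned from lower in positive cells on D11 to higher on D45. On the log2 scale, D45 minus D11, the difference moved up by 1.26 for KCNN2, 1.06 for KCNC1, 0.91 for KCNA3, 0.86 for KCNK1 and 0.85 for KCND3. It changed by −1.63 for KCNIP1, −1.77 for KCNJ3, −1.91 for KCNK3, −3.21 for KCNK12, −3.36 for KCNJ6, −0.86 for KCNC2, −1.45 for KCNH7, −1.25 for KCNQ3, −1.21 for KCNMA1, −1.12 for KCNG1 and −0.51 for KCND2. The call was lost for KCNC1 after thinning to 1000 UMIs, for KCNK1 with DCX in place of STMN2 and without any 1 of the D11 and D45 libraries, for KCNA3 without D11 A or D45 B, for KCNC2 without D11 B, for KCNG1 with DCX, after thinning or without D11 A, and for KCND2 with DCX, where its sign turned, or without D11 B, D45 A or D45 B. Summed neuron markers in STMN2-negative cells went over the same interval from 79.2 and 59.7 CPM to 480 and 368 CPM, and the median depth of negative cells went from 10613 and 8612 UMIs on D11 to 1109.5 and 1562.5 UMIs on D45. Their part in these changes was not tested. No day had enough libraries for a test of a single library standing apart.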

How the results depend on the processing

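The genes with most UMIs in a family are counted here in the comparisons that they passed. Direction was kept by every named value under every setting that gave one, except that the change of the STMN2 difference of KCND2 turned to 0.15 with DCX. With other tools, filters, gates or depths, 1094 named values stayed on their side of the threshold, 49 lost their call and 1 gained it, and with 1 library left out 688 stayed and 142 lost it. The cause was not tested. Requiring at least 3 STMN2 UMIs, or removing cells with markers of 2 types, left the STMN2-negative cells unchanged. Named values from fits within those cells alone stayed the same by construction under these settings and are among the 1094. Leaving out each library gave, for members higher and lower, 11 to 38 and 2 to 9 from D11 to D28, 0 to 25 and 0 to 12 from D28 to D45, 24 to 49 and 2 to 12 from D11 to D45, 37 to 41 and 8 to 13 for STMN2, 4 to 13 and 10 to 25 for its change, 17 to 38 and 1 to 10 in positive cells, 22 to 41 and 3 to 11 in negative cells, 16 to 25 and 5 for TH, 18 to 28 and 4 to 10 for GAD2, and 5 to 10 and 15 to 27 for SOX10. With 2 AQP4 libraries no residual degrees of freedom were left for this. The counts of members in this section have no share of all genes from the same fits beside them.

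DESeq2 gave 7 lower from D28 to D45 and 5 higher for AQP4. Thinning to 1000 UMIs gave 5 higher for the change of the STMN2 difference, and 18 higher and 2 lower for D45 against D11 in positive cells. No filter on low counts gave 11 lower for TH, and a gate of at least 1 UMI gave 15 lower for SOX10. The letters A and B did not pair libraries across days, since the correlations of their deviations were −0.321, 0.048 and −0.196. With the letter as a replicate block, 6 members were higher and 0 lower from D28 to D45 (31 had an unadjusted p under 0.05 without the block), and 5 were lower from D11 to D45. The block ended the calls of KCNC2, KCNIP4, KCNJ2, KCNJ16, KCNK10, KCNMA1 and KCNMB1 from D28 to D45, KCNG1 from D11 to D28 and D45, KCNH6 from D11 to D45, KCNAB2 from D11 to D45 in positive cells and KCND2 from D11 to D45 in both classes.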
